A study of Mus musculus with 24 samples.

Results

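The rod phototransduction cascade was described through 9 genes, chosen by their symbols in the deposited table of 28802 genes: Gnat1, Gnb1, Gngt1, Pde6a, Pde6b, Pde6g, Cnga1, Cngb1 and Sag. All 9 were among the 16400 genes whose mean over the libraries reached 0.5 cpm, the limit set for testing, where cpm are reads of a gene per 1000000 reads of the library. The study sequenced retinal RNA of wild-type mice at postnatal day 28 from 8 inbred strains: the 3 wild-derived strains CAST/EiJ, PWK/PhJ and WSB/EiJ, and the classical strains C57BL/6J, A/J, 129S1/Svlmj, NZO/HlLtJ and NOD/ShiLtJ. Each strain had 3 libraries, 24 in all, and the groups were told apart by strain alone. The deposited cpm values are described by the authors as counts divided by total reads, and which reads these totals include was not settled. The totals were inferred from the cpm of 1 read and ran from 57607000 reads in WSB/EiJ replicate 3 to 78150000 in C57BL/6J replicate 2. By that inference the member with the fewest reads in any library, Cngb1 in 129S1/Svlmj replicate 3, still had 7342 reads, with a counting error of 1.17%.

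In the outer segment of a rod, a visual pigment molecule that has absorbed light activates the G protein transducin, which relieves the inhibition of the phosphodiesterase PDE6. PDE6 then breaks down cyclic GMP, and the cation channels that cyclic GMP holds open in darkness close. Arrestin binds the activated and phosphorylated pigment and stops its signal. The members encode the 3 subunits of rod transducin, the catalytic and inhibitory subunits of rod PDE6, both subunits of the rod channel and rod arrestin.

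Each member was measured well above the detection limit in every library, and together they made up 1.76% to 2.24% of the summed cpm of a library. Their summed level was lowest in 129S1/Svlmj (6364 ± 279 cpm, mean and SD of 3 libraries) and WSB/EiJ (6410.1 ± 583), followed by A/J (6656 ± 85.1), C57BL/6J (6882 ± 51.4), PWK/PhJ (7224 ± 319), NZO/HlLtJ (7410.3 ± 199), NOD/ShiLtJ (7572 ± 416) and CAST/EiJ (7658 ± 289). Within that total the members did not rise and fall as a block. Sag was lowest in C57BL/6J and, on the deposited scale, highest in NOD/ShiLtJ (after quantile normalization A/J and PWK/PhJ had larger differences), Gngt1 stood apart in CAST/EiJ and NZO/HlLtJ, Pde6a was lowest in NOD/ShiLtJ, and Gnat1 was highest in C57BL/6J on the deposited scale but not after quantile normalization, where its difference from the other strains was -0.14. Quantile normalization gives each rank 1 value, and Gnat1 held ranks 6 to 9 of each library, Sag 7 to 13 and Gnb1 10 to 15. Its results for these genes are therefore steps between a few values. In bulk retina, fewer rods and less RNA in each rod cannot be told apart.

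Differences were tested on log2(cpm + 1) with limma over all 16400 genes. The p-values measure differences against the spread between libraries, which the study's methods treat as biological replicates. A gene was called where Storey's q, an estimate of the share of false calls among calls at least as strong, was under 0.01. All 9 members were called for a difference anywhere among the 8 strains by limma's moderated F-test, but so were 97.2% of all genes tested, so this count says little about the members. The limit was lax for this test, because the estimated share of true nulls was low. The lens gene Cryaa, with F = 1.30 and 29.4% of its variance between strains, was called as well (q = 0.00648). The 97.2% is therefore not a share of genes shown to differ. Over the 28 pairs of strains for each member, 98 of 252 pairs were called, against 30.2% of all pairs of all genes. The median member had 8 called pairs, against 8 for all genes tested and 9 for the 427 genes averaging 100 cpm or more, and a range of strain means of 0.54 on the log2 scale against 0.43 for all genes and 0.39 for those 427. A median of 74.3% of the variance of a member lay between strains, against 75.5% over all genes tested and 80.3% over the 427. No test was made of the list as a whole.

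**Figure D1:**
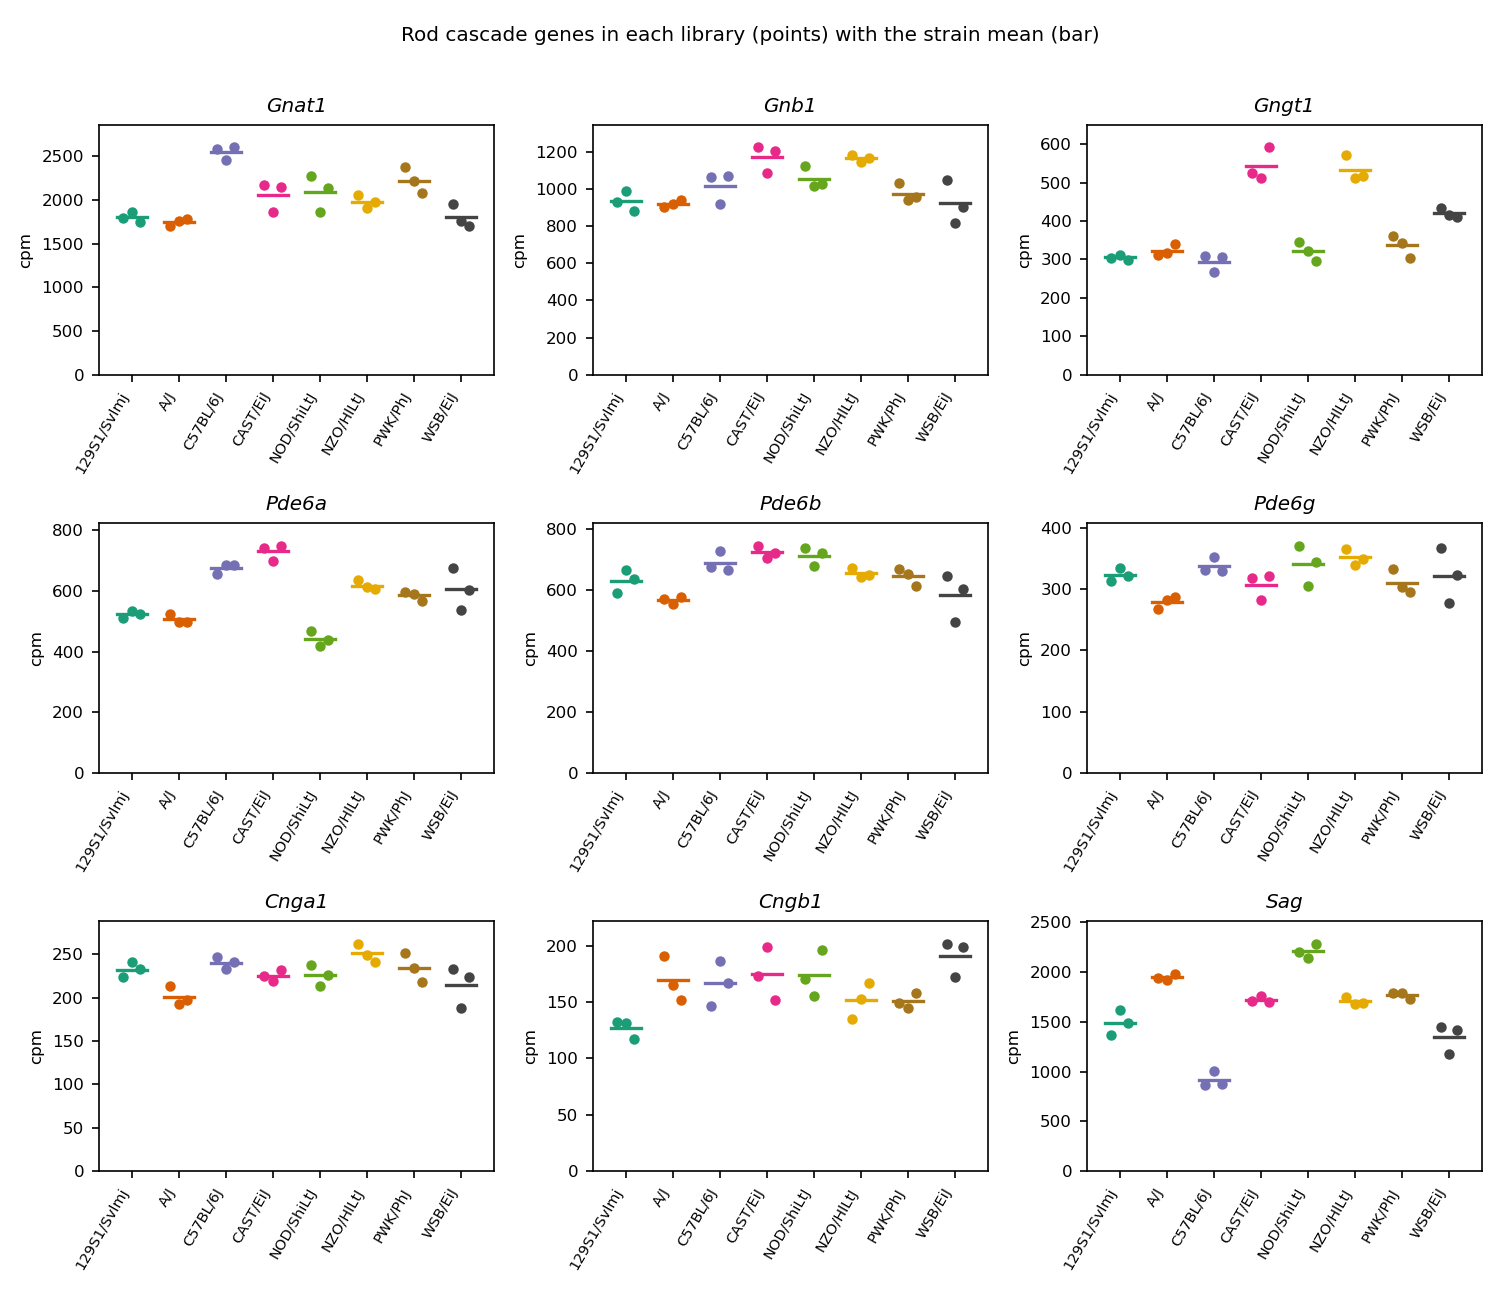
Level of each of the 9 members (vertical axis, cpm, starting at 0) in the 24 libraries grouped by strain (horizontal axis). Points are single libraries and bars are means of 3 libraries; the 3 Sag points of C57BL/6J lie below all others, as do the 3 Pde6a points of NOD/ShiLtJ.

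Each strain was also compared with the mean of the other 7, which gave 72 comparisons for the 9 members and 34 calls, 15 higher and 19 lower. These 8 contrasts share libraries and are not independent of one another. In 129S1/Svlmj 0 members were called higher and 4 lower, where 14.5% of all genes tested were higher and 13.0% lower. A/J had 1 member higher and 6 lower against 15.1% and 12.6% of all genes. C57BL/6J had 2 higher and 2 lower (12.5% and 10.0%), with 0 higher and 2 lower after quantile normalization. CAST/EiJ had 4 higher and 0 lower (20.3% and 29.1%). In NOD/ShiLtJ 1 was higher and 2 were lower (14.9% and 9.14%), with 0 and 3 after quantile normalization, and NZO/HlLtJ had 3 higher and 0 lower (12.7% and 13.2%). PWK/PhJ had 2 higher and 1 lower (26.6% and 22.8%), a split of 1 and 1 under median-ratio scaling and 2 and 2 under quantile normalization. WSB/EiJ had 2 higher and 4 lower (12.7% and 21.9%), which became 3 and 2 under median-ratio scaling and 3 and 0 under quantile normalization. On the deposited scale, the member shares stood furthest above those of all genes for the lower calls of A/J. After quantile normalization A/J had 1 higher and 4 lower, NZO/HlLtJ 4 and 0, 129S1/Svlmj 0 and 3, and CAST/EiJ 3 and 0. Over all genes the split moved by more than 10 percentage points with the scaling in 2 strains: higher calls were 62.0% of the calls in NOD/ShiLtJ on the deposited scale, 51.2% under median-ratio scaling and 47.4% under quantile normalization, and 36.7%, 49.3% and 49.4% in WSB/EiJ. Smaller moves were seen elsewhere, the largest in CAST/EiJ with 41.1%, 49.3% and 50.7%.

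Single libraries moved several of these counts by more than 1.5 times. The members called in 129S1/Svlmj went from 4 to 2 without its replicate 1 or its replicate 3, and those in A/J from 7 to 4 without A/J replicate 2. PWK/PhJ went from 3 to 1 without its replicate 1 or its replicate 2. In NZO/HlLtJ the count was 1 without its own replicate 1 and 5 without WSB/EiJ replicate 1, and in WSB/EiJ it fell from 6 to 3 without its replicate 3. WSB/EiJ replicate 2 had the lowest summed cpm of the 24 libraries (332472) and the lowest summed level of the members (5837 cpm), and it was the lowest library of its strain for 7 of the 9. Of the 34 calls, 17 held without any 1 library, and 11 held in every alternative tried: Gnat1 in A/J, Gngt1 in CAST/EiJ, NZO/HlLtJ, C57BL/6J, 129S1/Svlmj and A/J, Pde6a in CAST/EiJ and NOD/ShiLtJ, Cngb1 in 129S1/Svlmj, and Sag in A/J and C57BL/6J.

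**Figure D2:**
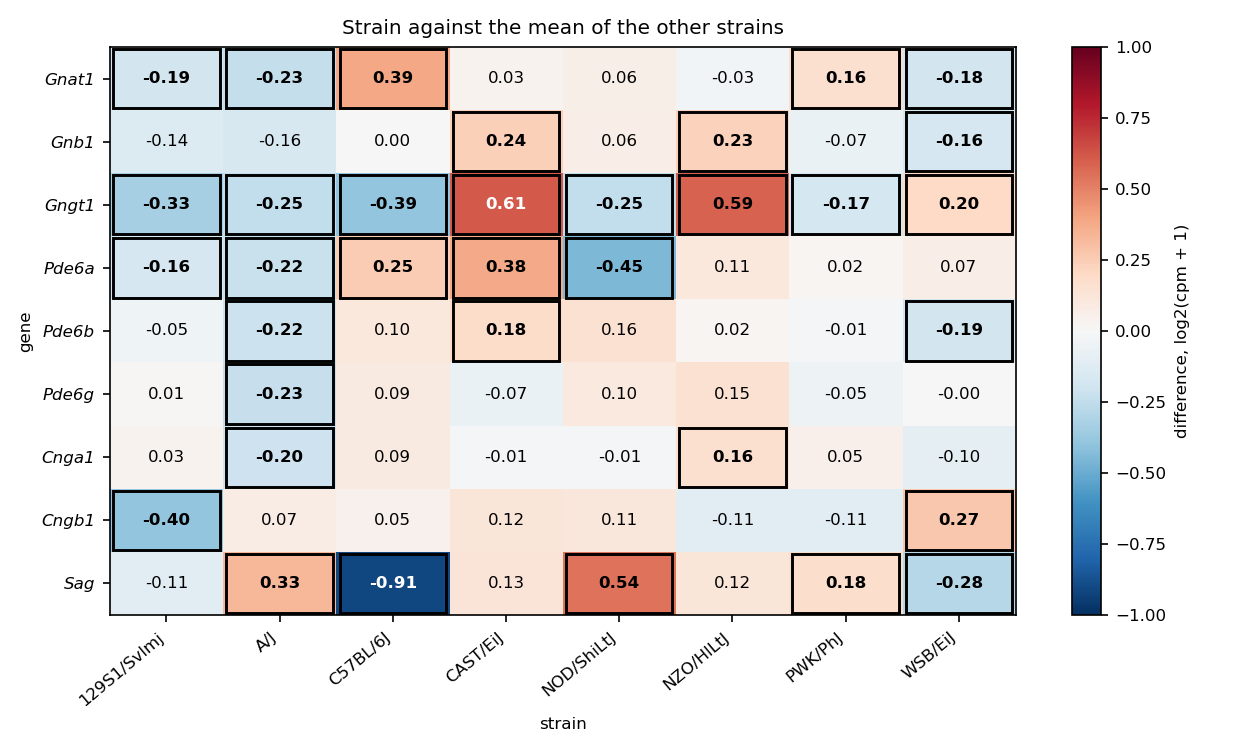
Difference of each strain (horizontal axis) from the mean of the other 7 in log2(cpm + 1) (colour and printed value) for the 9 members (vertical axis), with boxes around the 34 called differences. Sag in C57BL/6J has the largest value, -0.91; 6 boxed values change sign under quantile normalization (Gnat1 in C57BL/6J, Gnb1 in CAST/EiJ and WSB/EiJ, Pde6b in A/J and CAST/EiJ, Sag in WSB/EiJ).

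Gnat1 encodes the rod transducin alpha subunit, which binds GTP and activates PDE6. Its libraries measured 2584, 2456 and 2598 cpm in C57BL/6J, 2370.4, 2215 and 2074 in PWK/PhJ, 2275, 1865 and 2138 in NOD/ShiLtJ, and 2168, 1863 and 2146 in CAST/EiJ. The lower strains gave 2051, 1910.0 and 1969.7 cpm in NZO/HlLtJ, 1956, 1759.5 and 1703 in WSB/EiJ, 1787, 1857 and 1749.6 in 129S1/Svlmj, and 1697, 1761 and 1783 in A/J. All 3 C57BL/6J libraries lay above the other 21, and the remaining strains formed an overlapping series from PWK/PhJ down to A/J. Gnat1 was higher in C57BL/6J by 0.39 on the log2 scale (SE 0.05, q = 3.63e-06), but -0.14 (q = 0.0171) after quantile normalization. The gene was lower in A/J (-0.23, q = 0.000742), and both calls held without any 1 library. Calls in 129S1/Svlmj (-0.19, q = 0.00411), WSB/EiJ (-0.18, q = 0.00371) and PWK/PhJ (0.16, q = 0.00511) depended on single libraries. The 129S1/Svlmj call was lost without its replicate 1 (q = 0.0199) or replicate 3 (q = 0.0343), the WSB/EiJ call without its replicate 2 (q = 0.0222) or replicate 3 (q = 0.0450), and the PWK/PhJ call without its replicate 1 (q = 0.0609) or replicate 2 (q = 0.0197). All 3 also missed the limit with Benjamini-Hochberg adjusted p-values (0.0107, 0.0105 and 0.0186), and the WSB/EiJ and PWK/PhJ calls missed it under median-ratio scaling (q = 0.0135 and 0.0103). Without a filter on low values they missed it as well (q = 0.0198 in 129S1/Svlmj, 0.0183 in WSB/EiJ and 0.0202 in PWK/PhJ), and quantile normalization ended the 129S1/Svlmj and WSB/EiJ calls (-0.08 in both). The same normalization enlarged the PWK/PhJ difference to 0.48 (q = 1.10e-08) and called Gnat1 in 2 further strains, CAST/EiJ (0.48, q = 1.09e-08) and NOD/ShiLtJ (-0.31, q = 1.97e-05, where the deposited scale gave 0.06). With ranks 6 to 9 in every library, Gnat1 takes only a few values there, and CAST/EiJ and PWK/PhJ received the same difference. These q-values therefore do not measure the spread of Gnat1 levels. The CAST/EiJ difference was 0.03 on the deposited scale and 0.07 under median-ratio scaling. No pair of neighbours in the order of strain means was called, the widest step being from C57BL/6J to PWK/PhJ (0.20, q = 0.0143).

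Gnb1 encodes a beta subunit that transducin shares with G proteins of many other cells. Its strain means ran from 921 ± 19.5 cpm in A/J to 1172 ± 73.5 in CAST/EiJ, a ratio of 1.27. CAST/EiJ (1223, 1088 and 1205 cpm) and NZO/HlLtJ (1185, 1144 and 1169) formed the top of the order, and among the other strains only a NOD/ShiLtJ library at 1121 cpm reached into the CAST/EiJ range. The other means descended from NOD/ShiLtJ (1056) through C57BL/6J (1017), PWK/PhJ (974), 129S1/Svlmj (934) and WSB/EiJ (923) to A/J, and no 2 neighbours in the order differed at the limit. The CAST/EiJ difference of 0.24 (SE 0.06, q = 0.000358) held without any 1 library but was -0.04 after quantile normalization. In NZO/HlLtJ the difference was 0.23 (q = 0.00135), lost without its replicate 1 (q = 0.0146). A lower value in WSB/EiJ (-0.16, q = 0.00851), which was 0.04 after quantile normalization, was the least firm of all: 14 of the 24 single omissions ended the call, with q up to 0.124 without its own replicate 2, as did median-ratio scaling (q = 0.0279) and Benjamini-Hochberg adjustment (0.0241). That call was also lost without a filter on low values (q = 0.0240) and with limma's eBayes without a trend (q = 0.0104). Median-ratio scaling called Gnb1 lower in A/J (-0.17, q = 0.00593), and quantile normalization gave its largest difference in PWK/PhJ (-0.41, q = 1.87e-06), where the deposited scale gave -0.07, so the order of strains is that of the deposited scale.

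Gngt1 encodes the rod transducin gamma subunit, whose lipid tail helps hold the beta and gamma dimer on the disc membrane. Its libraries measured 525, 513 and 591 cpm in CAST/EiJ and 571, 513 and 517 in NZO/HlLtJ. WSB/EiJ followed with 435, 416 and 411 cpm. The other 5 strains gave 361, 344 and 304 cpm (PWK/PhJ), 310.3, 316 and 339 (A/J), 346, 321 and 297 (NOD/ShiLtJ), 304, 312 and 299 (129S1/Svlmj), and 309, 267 and 307 (C57BL/6J). The levels therefore fell into 3 tiers with no overlap between them, and within the lowest tier only A/J and C57BL/6J did not overlap. Both steps between tiers were called: NZO/HlLtJ over WSB/EiJ by 0.34 (q = 0.000230) and WSB/EiJ over PWK/PhJ by 0.32 (q = 0.000392), while none of the other neighbours differed. Against the other 7 strains, Gngt1 was called in all 8: it was higher in CAST/EiJ (0.61, SE 0.05, q = 4.97e-10), NZO/HlLtJ (0.59, q = 4.66e-09) and WSB/EiJ (0.20, q = 0.00207). It was lower in C57BL/6J (-0.39, q = 2.22e-06), 129S1/Svlmj (-0.33, q = 1.74e-05), A/J (-0.25, q = 0.000442), NOD/ShiLtJ (-0.25, q = 0.000436) and PWK/PhJ (-0.17, q = 0.00250). The calls in WSB/EiJ, NOD/ShiLtJ and PWK/PhJ were each lost without 1 library, WSB/EiJ replicate 1 (q = 0.0167), NOD/ShiLtJ replicate 3 (q = 0.0154) and PWK/PhJ replicate 3 (q = 0.0533), and the other 5 held without any 1 library. Of the 31-base words of its main transcript, 7.20% also occur in transcripts of other genes, the largest share among the members.

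Because the transducin subunits work as a complex, the ratio of Gnat1 to Gngt1 was taken within each library, where any factor common to a library cancels. It was 8.67 in C57BL/6J, 6.60 in PWK/PhJ, 6.50 in NOD/ShiLtJ, 5.89 in 129S1/Svlmj, 5.43 in A/J, 4.29 in WSB/EiJ, 3.79 in CAST/EiJ and 3.71 in NZO/HlLtJ. These are ratios of cpm, not of molecules, since the transcripts differ in length. C57BL/6J, with high Gnat1 and low Gngt1, stood at one end on the deposited scale, but after quantile normalization its log2 ratio was 0.29 above the other strains against 0.61 for PWK/PhJ. NZO/HlLtJ stood at the other end on both scales. The strain means spanned 1.23 on the log2 scale, and 25 of 28 pairs of strains did not overlap. For Gnat1 to Gnb1 the span was 0.57, from a ratio of 1.70 in NZO/HlLtJ to 2.51 in C57BL/6J, and 21 pairs did not overlap, but after quantile normalization the log2 ratio was -0.16 against the other strains in C57BL/6J and highest in PWK/PhJ (0.89). That normalization is not a common factor: it gives each rank 1 value, and Gnat1 held ranks 6 to 9 and Gnb1 10 to 15. Median-ratio scaling, which is one, left the C57BL/6J log2 ratios of Gnat1 to Gngt1 and to Gnb1 at 0.78 and 0.39 against the other strains, as on the deposited scale. Over all single genes tested, 45.8% of pairs of strains did not overlap.

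Pde6a encodes the alpha catalytic subunit of PDE6. In NOD/ShiLtJ its libraries measured 467, 419 and 437 cpm, in A/J 525, 496 and 496, and in 129S1/Svlmj 512, 534 and 524. The middle strains gave 597, 589.6 and 568 cpm in PWK/PhJ, 676, 536 and 604 in WSB/EiJ, and 635, 611 and 606 in NZO/HlLtJ. C57BL/6J reached 655, 684 and 684 cpm and CAST/EiJ 742, 698 and 749. The NOD/ShiLtJ libraries lay below the other 21 and the CAST/EiJ libraries above them, with 24 of 28 pairs of strains not overlapping. Pde6a was lower in NOD/ShiLtJ (-0.45, SE 0.05, q = 2.37e-08) and A/J (-0.22, q = 0.000233) and higher in CAST/EiJ (0.38, q = 6.60e-08) and C57BL/6J (0.25, q = 7.12e-05). These 4 calls held without any 1 library, although quantile normalization ended those in A/J (-0.07, q = 0.0879) and C57BL/6J (0.06, q = 0.156). It also reduced the CAST/EiJ difference to 0.17 (q = 0.000599) and called Pde6a higher in WSB/EiJ (0.23, q = 7.46e-05), as did median-ratio scaling (0.11, q = 0.00986). The lower value in 129S1/Svlmj (-0.16, q = 0.00286) was lost without its replicate 1 (q = 0.0220) or replicate 3 (q = 0.0164). Without CAST/EiJ and PWK/PhJ, which also changes the reference, it was lost as well (q = 0.0703), as was the A/J call (-0.16, q = 0.0112). Among neighbours in the order, only A/J over NOD/ShiLtJ was called (0.20, q = 0.00525), and 20 of 28 pairs in all were called, the most of any member.

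Pde6b encodes the beta catalytic subunit, which pairs with the product of Pde6a. Its range was narrower, from 566 ± 11.8 cpm in A/J to 723 ± 19.9 in CAST/EiJ, a ratio of 1.28. NOD/ShiLtJ (711 ± 31.2 cpm) came next to CAST/EiJ, followed by C57BL/6J (688), NZO/HlLtJ (653), PWK/PhJ (643), 129S1/Svlmj (629) and WSB/EiJ (581 ± 76.9), and no neighbours in that order differed. The A/J libraries, 569, 553 and 577 cpm, overlapped only those of WSB/EiJ, 644, 495 and 603. Lower values were called in A/J (-0.22, SE 0.05, q = 0.000985), though 0.01 after quantile normalization, and in WSB/EiJ (-0.19, q = 0.00247), where quantile normalization left -0.03 (q = 0.243). The CAST/EiJ value was higher (0.18, q = 0.00141) but -0.02 after quantile normalization. Each of the 3 calls was lost without 1 library of its own strain: A/J replicate 2 (q = 0.0129), CAST/EiJ replicate 1 (q = 0.0137) and WSB/EiJ replicate 2, where the difference shrank to -0.08 (q = 0.0863). The WSB/EiJ call was also lost without CAST/EiJ and PWK/PhJ (-0.16, q = 0.0133).

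The ratio of Pde6a to Pde6b set NOD/ShiLtJ apart from every other strain. It was 0.620 there and 0.832 in 129S1/Svlmj, 0.892 in A/J, 0.910 in PWK/PhJ, 0.945 in NZO/HlLtJ, 0.980 in C57BL/6J, 1.01 in CAST/EiJ and 1.04 in WSB/EiJ. In NOD/ShiLtJ the alpha subunit gene was the lowest of the 8 strains while the beta subunit gene was next to the highest, and 22 of 28 pairs of strains did not overlap in the ratio.

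Pde6g encodes the inhibitory gamma subunit that transducin displaces. It ranged from 279 ± 10.2 cpm in A/J to 352 ± 13.0 in NZO/HlLtJ, and with 3 called pairs of 28 it varied least clearly among the members. On the deposited scale only A/J differed from the other 7 strains (-0.23, SE 0.06, q = 0.00205), a call lost without its replicate 1 (q = 0.0215) or replicate 2 (q = 0.0113). Quantile normalization also called Pde6g higher in NZO/HlLtJ (0.19, q = 0.00148, from 0.15 and q = 0.0234). The A/J libraries, 267, 282 and 287 cpm, overlapped single libraries of CAST/EiJ (282) and WSB/EiJ (277). Relative to the mean of Pde6a and Pde6b on the log2 scale, Pde6g was highest in NOD/ShiLtJ (a ratio of 0.607) and lowest in CAST/EiJ (0.423), a span of 0.52 with 22 of 28 pairs not overlapping.

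**Figure D3:**
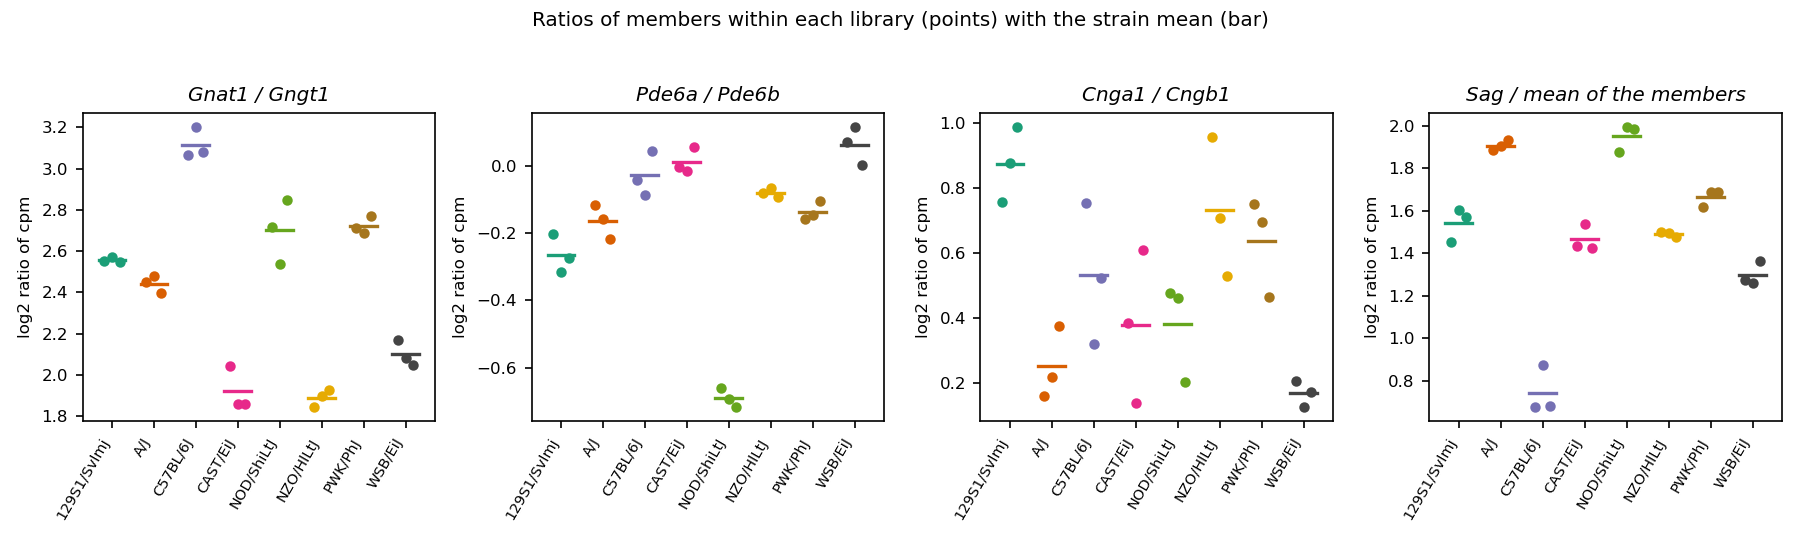
Ratios between members within each library (vertical axes, log2 ratio of cpm, not starting at 0) by strain (horizontal axis), with points for single libraries and bars for means of 3. Gnat1 to Gngt1 spans 1.23 between strains, Pde6a to Pde6b is lowest in NOD/ShiLtJ, Cnga1 to Cngb1 overlaps most, and Sag against the mean of the 9 members is lowest in C57BL/6J.

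Cnga1 encodes the channel subunit that forms the pore and binds cyclic GMP. It had the narrowest range of strain means, from 201 ± 11.0 cpm in A/J to 251 ± 10.5 in NZO/HlLtJ, a ratio of 1.25. Its order ran from NZO/HlLtJ through C57BL/6J (240.5 cpm), PWK/PhJ (235), 129S1/Svlmj (232), NOD/ShiLtJ (226), CAST/EiJ (226) and WSB/EiJ (215) to A/J, with no called neighbours. The lower value in A/J (-0.20, SE 0.05, q = 0.00124) was lost without its replicate 2 (q = 0.0214) or replicate 3 (q = 0.0122). The higher value in NZO/HlLtJ (0.16, q = 0.00753) was lost in 6 of 24 single omissions, with q up to 0.0772 without its own replicate 1, and with Benjamini-Hochberg adjustment (0.0180). It missed the limit without a filter on low values (q = 0.0145) and with limma's eBayes without a trend (q = 0.0112) as well. It was also lost, at q = 0.0101, in an alternative chosen after seeing the data that left out the 3 libraries with raised lens markers.

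Cngb1 encodes the modulatory channel subunit, and the same gene also gives the GARP proteins of the disc rim, so its gene-level value covers all of these transcripts. It had the widest spread between libraries of a strain, with a mean coefficient of variation of 9.88% against 4.24% to 6.51% for the other members. The libraries of 129S1/Svlmj measured 132, 131 and 117 cpm and those of WSB/EiJ 202, 172 and 199, with 135 to 199 cpm in the 6 strains between. All 129S1/Svlmj libraries lay below the other 21, while the WSB/EiJ range overlapped those of 4 other strains. Cngb1 was lower in 129S1/Svlmj (-0.40, SE 0.08, q = 0.000210), a call that held without any 1 library. It was higher in WSB/EiJ (0.27, q = 0.00373), a call lost without its replicate 1 (q = 0.0282) or replicate 3 (q = 0.0298) and with Benjamini-Hochberg adjustment (0.0106). These opposite ends made the ratio of Cnga1 to Cngb1 highest in 129S1/Svlmj (1.83) and lowest in WSB/EiJ (1.12), but only 12 of 28 pairs of strains did not overlap in it.

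Sag encodes rod arrestin, also known as S-antigen, and had the largest differences of all members. The C57BL/6J libraries measured 862, 1009.9 and 879 cpm, those of WSB/EiJ 1444, 1175 and 1419, and those of 129S1/Svlmj 1368, 1618 and 1490.4. Next came NZO/HlLtJ with 1753, 1683 and 1689.9 cpm, CAST/EiJ with 1714, 1759.5 and 1696, and PWK/PhJ with 1791, 1789 and 1729.9. A/J gave 1937, 1916 and 1983 cpm and NOD/ShiLtJ 2203, 2142 and 2285. C57BL/6J therefore lay below every other library and NOD/ShiLtJ above every other, with A/J alone in the next place. The mean of C57BL/6J, 917 ± 81.1 cpm, was 0.526 of the mean of the other strains, a log2 difference of -0.91 (SE 0.05, q = 1.89e-12), and that of NOD/ShiLtJ was 2210.2 ± 72.0 (0.54, q = 1.49e-08). After quantile normalization the NOD/ShiLtJ difference was 0.17 and missed the limit (q = 0.0127), below those of A/J and PWK/PhJ (0.31 in both), so NOD/ShiLtJ was not highest on that scale, while that of C57BL/6J was -0.997 (q = 1.60e-12). Their ratio of 2.41 placed the log2 range of Sag, 1.27, at percentile 92.9 of all genes tested. Sag was also higher in A/J (0.33, q = 1.61e-05), lower in WSB/EiJ (-0.28, q = 7.39e-05; 0.00 after quantile normalization) and higher in PWK/PhJ (0.18, q = 0.00224). Median-ratio scaling added a higher call in CAST/EiJ (0.17, q = 0.000797). All calls on the deposited scale held without any 1 library except PWK/PhJ, lost without its replicate 1 (q = 0.0148) or replicate 2 (q = 0.0137). Of the neighbours in the order, only WSB/EiJ over C57BL/6J was called (0.55, q = 5.99e-07), and the step from A/J to NOD/ShiLtJ, 0.18, missed the limit (q = 0.0195). In C57BL/6J, then, the gene for arrestin was at its lowest and the gene for the transducin alpha subunit at its highest on the deposited scale, though Gnat1 there was -0.14 against the others after quantile normalization.

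Levels of different members were compared only per length, as mean cpm over 24 libraries divided by the kilobases of the main annotated transcript. On that scale Sag (954 cpm per kb) and Gnat1 (872) were highest. Pde6g (357), Gnb1 (325) and Gngt1 (325) came next, followed by Pde6b (232) and Pde6a (128). The channel genes Cnga1 (83.3) and Cngb1 (26.3) were lowest. The order depends on which transcript stands for the gene, and the main transcript of Cngb1, at 6189 bases with 33 exons, was the longest. No exon base of any member was annotated to a second gene on either strand.

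Over the 24 libraries, Pearson correlations between members were mixed, as a description of points that share strains and libraries. Of 36 pairs, 29 were positive with a median of 0.19, from -0.51 for Pde6a with Sag to 0.78 for Pde6g with Cnga1 (Spearman 0.78). Once each strain's mean was taken out, 32 pairs were positive and the median rose to 0.56. No such median is given here for other genes, and a correlation does not say how far the members moved. WSB/EiJ replicate 2, the lowest library of its strain for 7 of the 9, is among these libraries. The SD of the mean log2 level of the members was 0.141 in WSB/EiJ and at most 0.0804, in NOD/ShiLtJ, elsewhere. Gnb1 and Pde6b (0.71) were also correlated over the 24 libraries, as were Gnb1 and Gngt1 (0.65), whereas Cngb1 reached no more than 0.16 (with Pde6a) and Sag no more than 0.18 (with Gngt1). Over the 8 strain means these genes reached 0.25 (Cngb1 with Gngt1) and 0.19 (Sag with Gngt1), and within strains 0.42 (Cngb1 with Sag) and 0.88 (Sag with Pde6b). The non-members closest to the mean profile of the 9 were Fam114a2 (Pearson 0.90, Spearman 0.78), Alkbh6 (0.88, 0.85), Fam57b (0.85, 0.85), Hnrnpm (0.84, 0.81) and H2az2 (0.83, 0.82). The closest non-member of each member was Odc1 for Gnat1 (0.88, 0.88), Eif4g2 for Gnb1 (0.85, 0.90), Kidins220 for Gngt1 (0.87, 0.82), Kcnj14 for Pde6a (0.92, 0.88), Abca4 for Pde6b (0.86, 0.78), Rpl27a for Pde6g (0.87, 0.91), Cep128 for Cnga1 (0.85, 0.83), Fbxl18 for Cngb1 (0.89, 0.87) and Rprl3 for Sag (0.88, 0.52). Each is the best of all genes tested, so a high value was to be found for any profile.

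Promoter windows from RefSeq (GRCm38.p6) matched 6 of the 9 members: Gnb1, Gngt1, Pde6b, Cnga1, Cngb1 and Sag, with no entry for Gnat1, Pde6a and Pde6g. The 250 bases before the start were searched on both strands for 4 motifs. These were the core of sites for the photoreceptor factor CRX (TAATCC), a motif within sites for the rod factor NRL (TGCTGA), the E-box bound by many factors (CANNTG) and the TATA box near many starts (TATAAA). Of 32851 windows of this length, 6.25% held the CRX core, 16.1% the NRL motif, 66.2% an E-box and 12.4% the letters TATAAA, on either strand. The CRX core was present in 4 of the 6 windows: 2 matches in Cngb1 and 1 each in Gngt1, Cnga1 and Sag. In Gngt1 and Cnga1, 216 and 250 bases of the window before the RefSeq start lie in annotated exons of the gene models used for lengths, and in the other 4 windows 0 do. The NRL motif was present in Pde6b and Sag, and an E-box in all 6. The letters TATAAA occurred in Gngt1 and Sag, in both on the strand opposite to the gene. They lay 133 to 128 bases before the start in Gngt1 and 207 to 202 in Sag, and neither match is taken as a TATA box. The windows of Sag, the member with the largest range, of Cngb1, whose highest correlation with another member was the lowest of the 9, and of Gnb1 and Pde6b, the most correlated pair among the 6, are printed 5′ to 3′ on the strand of the gene, with matches to any of the 4 motifs on either strand in capitals. Positions are chr1:87803430-87803679 (+) for Sag, chr8:95306586-95306835 (-) for Cngb1, chr4:155491111-155491360 (+) for Gnb1 and chr5:108388123-108388372 (+) for Pde6b. A match is a description of these letters in the reference genome and not a bound site, and the sequences of the other strains were not used here.
Sag: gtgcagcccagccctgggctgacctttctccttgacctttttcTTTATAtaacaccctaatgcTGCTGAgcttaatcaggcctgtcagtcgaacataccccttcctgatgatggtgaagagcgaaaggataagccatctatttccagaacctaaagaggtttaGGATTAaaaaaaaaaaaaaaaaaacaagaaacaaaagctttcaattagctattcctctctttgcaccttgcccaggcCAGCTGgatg
Cngb1: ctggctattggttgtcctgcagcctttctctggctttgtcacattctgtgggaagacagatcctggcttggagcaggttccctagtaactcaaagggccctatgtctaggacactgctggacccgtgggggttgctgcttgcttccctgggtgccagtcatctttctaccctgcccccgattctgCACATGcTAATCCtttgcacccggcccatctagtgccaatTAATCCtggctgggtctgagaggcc
Gnb1: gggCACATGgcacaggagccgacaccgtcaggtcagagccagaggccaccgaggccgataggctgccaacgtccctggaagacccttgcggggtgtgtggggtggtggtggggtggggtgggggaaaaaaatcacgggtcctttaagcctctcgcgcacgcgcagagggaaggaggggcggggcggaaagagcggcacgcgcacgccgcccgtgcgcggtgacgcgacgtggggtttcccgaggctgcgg
Pde6b: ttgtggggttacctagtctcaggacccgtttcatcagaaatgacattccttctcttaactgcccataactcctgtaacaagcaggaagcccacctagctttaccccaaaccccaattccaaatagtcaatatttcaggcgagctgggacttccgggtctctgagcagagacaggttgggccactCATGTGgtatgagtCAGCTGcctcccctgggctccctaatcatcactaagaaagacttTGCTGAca

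Genes that act beside the cascade in recovery and calcium feedback, from a list of 11, all passed the F-test, as did 97.2% of all genes. In CAST/EiJ 9 of them were higher and 1 lower (20.3% and 29.1% of all genes), while 7 were lower in 129S1/Svlmj (13.0%) and 8 in A/J (12.6%) with 0 higher in either. The median difference of the members had the sign of that of the 11 in 5 strains: CAST/EiJ (0.13 for the members and 0.25 for the 11), 129S1/Svlmj (-0.14 and -0.16), A/J (-0.22 and -0.23), C57BL/6J (0.09 and 0.07) and NOD/ShiLtJ (0.06 and 0.05). The signs were opposite in NZO/HlLtJ (0.12 and -0.04), PWK/PhJ (-0.01 and 0.12) and WSB/EiJ (-0.10 and 0.01). This tally depends on the scaling: after quantile normalization the median of the members was -0.01 in C57BL/6J, 0.04 in WSB/EiJ, 0.01 in CAST/EiJ and -0.07 in A/J, and that of the 11 was 0.01 in NZO/HlLtJ, so the signs were opposite only in C57BL/6J and PWK/PhJ. Grk1, the kinase that phosphorylates the activated pigment before Sag binds it, ran from 655 cpm in A/J to 1163 in CAST/EiJ. Pdc, which encodes phosducin, a partner of the transducin beta and gamma subunits, ran from 272 cpm in A/J to 781 in NZO/HlLtJ, and Guca1b, a calcium sensor that regulates guanylate cyclase, from 55.7 in 129S1/Svlmj to 157 in C57BL/6J. Of the 8 rod structure and fate genes, 4 were higher and 0 lower in CAST/EiJ (20.3% and 29.1% of all genes), and 0 higher and 4 lower in 129S1/Svlmj (14.5% and 13.0%). A/J had 1 and 1 (15.1% and 12.6%), NZO/HlLtJ 0 and 1 (12.7% and 13.2%), and C57BL/6J 3 and 0 (12.5% and 10.0%). In NOD/ShiLtJ the counts were 2 and 1 (14.9% and 9.14%), in PWK/PhJ 2 and 2 (26.6% and 22.8%), and in WSB/EiJ 0 and 2 (12.7% and 21.9%). Prph2, a disc rim protein, ran from 839 cpm in NOD/ShiLtJ to 1113 in C57BL/6J, and Abca4, a lipid transporter of the disc rim, from 452 in WSB/EiJ to 526 in NOD/ShiLtJ. The widest ranges were those of Fscn2, an actin-bundling protein gene, from 11.3 cpm in NZO/HlLtJ to 26.7 in C57BL/6J, and Reep6, from 63.5 in 129S1/Svlmj to 137 in CAST/EiJ.

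Markers of other tissue were measured beside the members. All 8 lens markers were listed above 0 in every library, and their summed level was 1619 cpm in 129S1/Svlmj replicate 2, 1831 in NOD/ShiLtJ replicate 2 and 214 in C57BL/6J replicate 2, at most 0.520% of the library sum. In the other libraries they summed to 40.2 and 24.4 cpm (129S1/Svlmj), 14.0, 9.80 and 8.39 (A/J), 5.16 and 10.1 (C57BL/6J), 19.6, 5.23 and 20.3 (CAST/EiJ), 15.0 and 16.8 (NOD/ShiLtJ), 16.5, 35.1 and 23.3 (NZO/HlLtJ), 68.2, 46.2 and 85.3 (PWK/PhJ), and 47.5, 11.3 and 11.5 (WSB/EiJ). The crystallin genes Cryaa and Cryba1 had the highest means, 74.3 and 49.0 cpm. Without these 3 libraries, an alternative chosen after seeing the data, 33 of the 34 calls of members held. Of 8 pigment epithelium markers, 6 were tested. Rgr (12.3 cpm) and Ttr (10.9 cpm) had the highest means, Ttr and Pmel (3.10 cpm) the widest log2 ranges, and Best1, named after its values were seen, was listed at 0 in 7 libraries. Their sums per library were 45.0, 49.4 and 41.8 in 129S1/Svlmj, 22.7, 49.4 and 75.0 in A/J, 35.1, 18.5 and 36.0 in C57BL/6J, 15.9, 12.9 and 15.0 in CAST/EiJ, 36.7, 23.4 and 23.6 in NOD/ShiLtJ, 15.6, 21.2 and 13.3 in NZO/HlLtJ, 12.5, 19.1 and 9.50 in PWK/PhJ and 85.5, 50.3 and 54.2 in WSB/EiJ cpm. Of 10 blood and microglia markers, 9 were tested. Hbb-bs (9.90 cpm) and Hba-a1 (6.22 cpm) had the highest means, Hba-a1 and Hbb-bt (0.890 cpm) the widest log2 ranges, and none was listed at 0. Their sums were 27.8, 20.8 and 19.7 in 129S1/Svlmj, 34, 31.3 and 31.8 in A/J, 23.2, 27.4 and 14.0 in C57BL/6J, 17.1, 15.1 and 17.1 in CAST/EiJ, 31.6, 37.4 and 38.2 in NOD/ShiLtJ, 25.1, 24.6 and 27.1 in NZO/HlLtJ, 27.2, 13.5 and 19.7 in PWK/PhJ and 22.8, 18.5 and 21.2 in WSB/EiJ cpm. Calls of these markers differed by strain. On the deposited scale, those of pigment epithelium leaned opposite to those of the members in CAST/EiJ, NZO/HlLtJ, PWK/PhJ, 129S1/Svlmj, A/J and WSB/EiJ. Those of blood and microglia leaned opposite in CAST/EiJ, A/J, PWK/PhJ and NOD/ShiLtJ but the same way in 129S1/Svlmj and WSB/EiJ. Several of these leans rest on few genes and are not a result about the members. In NZO/HlLtJ a single pigment epithelium gene was called, and the member shares of PWK/PhJ lay below those of all genes. The WSB/EiJ members turned to 3 higher and 2 lower under median-ratio scaling and to 3 and 0 under quantile normalization. In CAST/EiJ, where 4 members were higher, 5 of the 6 pigment epithelium genes tested and 7 of the 9 of blood and microglia were lower (29.1% of all genes), with 0 higher in either list. In A/J, where 6 members were lower, 7 of the 9 blood and microglia genes and 3 of the 6 pigment epithelium genes were higher (15.1%). In PWK/PhJ, where 2 members were higher and 1 lower, 6 of the 6 pigment epithelium genes and 3 of the 9 of blood and microglia were lower (22.8%). In WSB/EiJ, where 2 members were higher and 4 lower, 4 of the 6 pigment epithelium genes were higher (12.7%) and 3 of the 9 of blood and microglia lower (21.9%). In 129S1/Svlmj, with 4 members lower, 2 pigment epithelium genes were higher (14.5%) and 2 of blood and microglia lower (13.0%). In NZO/HlLtJ, with 3 members higher, 1 pigment epithelium gene was lower (13.2%), and of blood and microglia 1 was higher (12.7%) and 1 lower. In NOD/ShiLtJ, with 1 member higher and 2 lower, 4 of the 9 blood and microglia genes were higher (14.9%), and of pigment epithelium 1 was higher and 1 lower (9.14%). In C57BL/6J, with 2 members higher and 2 lower, no pigment epithelium gene was called, and of blood and microglia 3 were higher (12.5%) and 1 lower (10.0%). Of 8 retinal ganglion cell genes, 7 were also lower in CAST/EiJ and 0 higher. The counts were 4 higher and 1 lower in PWK/PhJ (26.6% and 22.8% of all genes) and 2 and 2 in A/J (15.1% and 12.6%). C57BL/6J and NOD/ShiLtJ each had 2 higher (12.5% and 14.9%) and 0 lower. 129S1/Svlmj and WSB/EiJ each had 1 higher (14.5% and 12.7%) and 0 lower, and NZO/HlLtJ had 0 of either. Nefl ran from 91.0 cpm in CAST/EiJ to 163 in C57BL/6J and Thy1 from 16.8 to 33.5 in the same strains, while Nefm was lowest in A/J (16.7) and highest in PWK/PhJ (31.2). The ganglion cell sums were 245, 260.5 and 244 in 129S1/Svlmj, 205, 198 and 203 in A/J, 254, 283 and 282 in C57BL/6J, 166, 169 and 166 in CAST/EiJ, 245, 229 and 240.3 in NOD/ShiLtJ, 215, 207 and 209 in NZO/HlLtJ, 261, 245 and 228 in PWK/PhJ and 239, 220.3 and 244 in WSB/EiJ cpm. The part of pigment epithelium, blood, microglia and ganglion cells in the differences of the members was not tested.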

How the data were processed

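RNA from mouse retina (8 strains, 3 libraries each) had been sequenced with a stranded kit; how strand was used in counting is not stated. The authors trimmed reads, aligned them with STAR to GRCm38 (mm10), the C57BL/6J genome, and assigned them to genes in Partek Flow with an expectation-maximization model. The deposited values are cpm, made by the authors from counts divided by total reads, with 0.0001 added; which reads the totals include was not settled, and read numbers given here were inferred from the cpm of 1 read. Their methods name RefSeq, while the biotypes in the table are of the Ensembl and Havana kind. In each library 86.0% to 88.4% of values under 50 reads lay within 0.02 of a whole number of reads, so no test for counts was used. The values of a library summed to between 332472 and 366570 cpm, and 3 reads corresponded to between 0.0384 and 0.0521 cpm. All columns were used, with 0 left out. The labels carry no replicate numbers, and those used here follow the order of the libraries. The libraries had been pooled by a randomized block design, and the labels do not give the blocks.

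Testing was limited to genes whose mean reached 0.5 cpm and used log2(cpm + 1), a pseudocount of 1, in limma 3.58.1 (R 4.3.3), using lmFit on strain means, contrasts and eBayes with a trend. The fit has 16 residual degrees of freedom. Storey's q was limited to 0.01 over all genes, and for pairs over all genes and pairs; its estimate of the share of true nulls was low, so a q can be below its p. The scripts were tested on simulated data. Libraries were left out singly, and pseudocount, filter, scaling, trend, threshold, adjustment and strains were varied.

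The members and lists were chosen with earlier results of these data known. The genes named are all 9 members, the 2 genes of highest mean cpm and the 2 of largest log2 range in each list described, the 5 genes most correlated with the mean of the standardized members, and the non-member and member most correlated with each member. Best1 is an exception, named after its values were seen. Gene models are those of GENCODE on GRCm38, and promoter sequences those of RefSeq on GRCm38.p6.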

Additional observations from a re-analysis of the deposited data

How the results depend on the processing

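All 34 calls of members kept their direction without any 1 library, with a pseudocount of 0.1, without a filter, with a limit of 5 cpm and under median-ratio scaling. Quantile normalization turned 6 of them: Gnat1 in C57BL/6J (-0.143405), Gnb1 in CAST/EiJ (-0.0374018) and WSB/EiJ (0.042946), Pde6b in A/J (0.00583863) and CAST/EiJ (-0.0193127), and Sag in WSB/EiJ (0.00130192). By its construction it gives each rank 1 value, and Gnat1 held ranks 6 to 9 of each library, Sag 7 to 13 and Gnb1 10 to 15. Under quantile normalization 2 members were called in C57BL/6J (Gngt1 and Sag) and 3 in WSB/EiJ. Of these 3, Gngt1 and Cngb1 were also called on the deposited scale, and Pde6a was not (q = 0.0845). Benjamini-Hochberg adjusted p-values gave 3 in WSB/EiJ, a threshold of 0.05 gave 6 in NZO/HlLtJ, and without CAST/EiJ and PWK/PhJ 129S1/Svlmj had 2 and WSB/EiJ 3; with fewer strains the reference also changes. Leaving out CAST/EiJ and PWK/PhJ ended the calls of Gnat1, Gnb1 and Pde6b in WSB/EiJ, Gnat1 and Pde6a in 129S1/Svlmj, and Pde6a in A/J. Other causes were not tested. Over single omissions, all 9 members kept the F-test call (9 to 9), calls ranged from 29 to 37 and called pairs from 89 to 113. By strain, the lowest and highest counts of called members were 4 and 4 (C57BL/6J), 3 and 5 (CAST/EiJ), 4 and 8 (A/J), 1 and 3 (PWK/PhJ), 2 and 4 (NOD/ShiLtJ), 3 and 6 (WSB/EiJ), 2 and 5 (129S1/Svlmj) and 1 and 5 (NZO/HlLtJ). No filter ended 5 calls, among them Gnat1 in 129S1/Svlmj, PWK/PhJ and WSB/EiJ. Without the 3 libraries rich in lens markers, chosen after seeing the data, 33 calls held. Depth did not limit the members, whose smallest count, inferred from the cpm of 1 read, was 7342 reads. The labels carry no replicate numbers, and those used here follow the order of the libraries. The 3 libraries rich in lens markers are all replicate 2. After strain means were taken out, the correlation between libraries of different strains had a median of 0.0531 where the numbers agreed and -0.0412 where they did not, and 15 of 24 libraries had their highest mean correlation with their own number. With this number as a block, chosen after seeing the data, all 34 calls held, 35 calls and 100 pairs were made, and A/J had 8 called members instead of 7.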

Other observations

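Among the lists of other retinal cells, cone cascade genes differed more between strains than the rod members did, with a median log2 range of 1.12 over 10 genes against 0.54. The cone phosphodiesterase gene Pde6c ran from 10.5 cpm in NOD/ShiLtJ to 41.2 in PWK/PhJ and Pde6h, its inhibitory subunit gene, from 9.95 in WSB/EiJ to 32.6 in C57BL/6J. The short-wavelength opsin gene Opn1sw ran from 60.2 cpm in CAST/EiJ to 146 in WSB/EiJ, and Gnb3, the cone transducin beta subunit gene, from 61.4 in C57BL/6J to 85.3 in PWK/PhJ. Of the 10 cone genes, 7 were higher and 0 lower in C57BL/6J (12.5% and 10.0% of all genes tested), 7 and 0 in PWK/PhJ (26.6% and 22.8%) and 6 and 1 in WSB/EiJ (12.7% and 21.9%). In NOD/ShiLtJ 0 were higher and 7 lower (14.9% and 9.14%), in A/J 1 and 5 (15.1% and 12.6%), in NZO/HlLtJ 1 and 4 (12.7% and 13.2%), in CAST/EiJ 3 and 5 (20.3% and 29.1%), and in 129S1/Svlmj 2 and 3 (14.5% and 13.0%).

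Bipolar cell genes had a median log2 range of 1.01. Prkca, protein kinase C alpha, which marks rod bipolar cells, ran from 57.3 cpm in A/J to 189 in WSB/EiJ, and Trpm1, the channel of ON bipolar cells, from 129 in PWK/PhJ to 239 in WSB/EiJ. Cabp5, a calcium-binding protein gene of bipolar cells, ran from 24.5 cpm in C57BL/6J to 68.2 in PWK/PhJ. Among the 8 Müller glia genes, the glutamine synthetase gene Glul ran from 525 cpm in CAST/EiJ to 749 in NOD/ShiLtJ and Dkk3 from 145 in WSB/EiJ to 236 in PWK/PhJ. The potassium channel gene Kcnj10 ran from 6.22 cpm in C57BL/6J to 15.1 in A/J, and Vim, which encodes vimentin, from 17.4 in CAST/EiJ to 36.0 in 129S1/Svlmj. Vim had the widest spread between libraries of a strain among these 8, a mean coefficient of variation of 16.0%. The 8 summed to 1226 cpm in 129S1/Svlmj replicate 2, which held 1619 cpm of lens markers, and to 1055 and 1063 in replicates 1 and 3. A part of lens tissue in these values was not tested.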
